A study of Mus musculus with 2 samples.

Results

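The genes described here are 10 genes of the system that draws monocytes and other myeloid cells into tissue, chosen by symbol from the 31053 genes counted in inflamed mouse skin: 8 CC chemokine ligands (*Ccl2*, *Ccl7*, *Ccl8*, *Ccl12*, *Ccl3*, *Ccl4*, *Ccl6* and *Ccl9*) and 2 receptors (*Ccr1* and *Ccr2*). Wild-type C57BL/6 mice had received the Toll-like receptor agonist imiquimod (IMQ), which induces psoriasiform inflammation, on 5 consecutive days, and 1 library was made from the dermis and 1 from the epidermis with a droplet-based 3′ single-cell kit. Both libraries came from treated skin, so no untreated control enters any comparison. The labels name the ear, an age of 10 weeks and the removal of dead cells for both layers, whereas the methods describe CD45+ live dermal cells, all live epidermal cells and younger mice. How many animals contributed to each library is not given in the sources used here.

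CC chemokines are small secreted proteins that guide leukocytes through G protein-coupled receptors. The products of *Ccl2*, *Ccl7* and *Ccl12* act on CCR2, the receptor that inflammatory monocytes need to leave the bone marrow, and mouse CCL8 is in addition known as a ligand of CCR8. The products of *Ccl3*, *Ccl6* and *Ccl9* act on CCR1, which is carried by neutrophils and other myeloid cells, and *Ccl4* encodes a close relative of CCL3. In skin, such ligands are known to be made by resident macrophages, mast cells, fibroblasts and recruited myeloid cells.

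The 8 ligand genes lie in 2 stretches of mouse chromosome 11 (GRCm38, GENCODE M21 gene models). On the plus strand, *Ccl2* (ENSMUSG00000035385) spans chr11:82035571-82037453, *Ccl7* (ENSMUSG00000035373) chr11:82045712-82047525, *Ccl12* (ENSMUSG00000035352) chr11:82101845-82103400 and *Ccl8* (ENSMUSG00000009185) chr11:82115185-82116799. The other stretch holds *Ccl9* (ENSMUSG00000019122) at chr11:83572919-83578636, *Ccl6* (ENSMUSG00000018927) at chr11:83587882-83593087 and *Ccl3* (ENSMUSG00000000982) at chr11:83647844-83649355 on the minus strand, and *Ccl4* (ENSMUSG00000018930) at chr11:83662584-83664683 on the plus strand. Both receptor genes lie on chromosome 9, *Ccr1* (ENSMUSG00000025804) at chr9:123962124-123968692 on the minus strand and *Ccr2* (ENSMUSG00000049103) at chr9:124101950-124113557 on the plus strand. Of these genes, *Ccl2* and *Ccl7* were highest in mast cells below, *Ccl12* and *Ccl8* in macrophages, and the 4 genes of the other stretch in basophils. Neighbouring ligand genes did not always share their leading cells. Among the dermal cell types listed below, *Ccl11*, which lies between *Ccl7* and *Ccl12*, was highest in fibroblasts. *Ccl5*, which lies before *Ccl9*, was highest in macrophages among these types, at 95.2 CPM. That is below its 148 CPM over the whole dermal library, so cells outside the listed types had more of it.

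The RefSeq promoters of GRCm38.p6 (250 bases upstream of the start of the gene, read 5′ to 3′ on the strand of the gene) are shown for the pair of ligands that differed most between resident-type and other macrophages, *Ccl8* (chr11:82114935-82115184, plus strand) and *Ccl12* (chr11:82101595-82101844, plus strand), and for the pair whose level in basophils was furthest above that of the type next in order, *Ccl6* (chr11:83593088-83593337, minus strand) and *Ccl9* (chr11:83578637-83578886, minus strand). Capitals mark each match to TATAAA or its reverse complement TTTATA.
Ccl8: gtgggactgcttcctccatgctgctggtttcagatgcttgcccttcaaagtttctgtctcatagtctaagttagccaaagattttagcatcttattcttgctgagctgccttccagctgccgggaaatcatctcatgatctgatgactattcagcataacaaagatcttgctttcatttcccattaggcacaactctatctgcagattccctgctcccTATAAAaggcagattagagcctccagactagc
Ccl12: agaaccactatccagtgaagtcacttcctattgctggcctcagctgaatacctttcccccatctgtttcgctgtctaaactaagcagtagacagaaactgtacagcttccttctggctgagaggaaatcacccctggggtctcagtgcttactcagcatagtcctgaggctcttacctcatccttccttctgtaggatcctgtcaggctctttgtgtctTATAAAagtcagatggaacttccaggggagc
Ccl6: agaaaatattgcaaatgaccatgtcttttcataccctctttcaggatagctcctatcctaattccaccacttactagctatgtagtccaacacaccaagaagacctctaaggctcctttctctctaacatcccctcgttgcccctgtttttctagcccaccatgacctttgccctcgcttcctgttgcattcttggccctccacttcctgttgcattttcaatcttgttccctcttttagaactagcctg
Ccl9: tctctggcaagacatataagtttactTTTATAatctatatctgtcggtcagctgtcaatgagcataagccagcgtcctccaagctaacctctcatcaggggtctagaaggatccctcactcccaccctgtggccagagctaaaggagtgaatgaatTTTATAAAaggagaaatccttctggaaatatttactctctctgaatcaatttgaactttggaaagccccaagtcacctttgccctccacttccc
The table held an entry for 7 of the 10 genes and none for *Ccl2*, *Ccl7* and *Ccl4*. TATAAA on either strand was found in 3 of those 7 promoters, against 12.4% of 32851 promoters of this length: it began 32 bases before the start of *Ccl8* (position -32), 31 bases before that of *Ccl12* (position -31), and at positions -224, -94 and -92 of *Ccl9*, where the last pair overlaps. AGGAAGT, a letter string bound by PU.1, or its reverse complement ACTTCCT was found in the promoters of *Ccl12* (position -228) and *Ccl6* (position -48), and in 7.69% of all promoters. Other strings were also searched. That of NF-kB was found in *Ccr1* and *Ccl9* (45.8% of all promoters) and that of GATA factors in *Ccr2* (9.99%). The AP-1 string was found in *Ccl9* (6.75%) and the C/EBP string in 0 of the 7 (1.74%). The promoters of *Ccl8* and *Ccl12* were identical at 65.2% of 230 aligned bases, within the 56.3% to 67.3% that other pairs of these promoters gave. These matches describe letters only.

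After cells under 200 genes or over 10% mitochondrial unique molecular identifiers (UMIs, the count of captured transcripts) were left out, 4747 of 5376 dermal cells with 40392866 UMIs and 4173 of 5258 epidermal cells with 105033363 UMIs remained. The median was 7010 UMIs per dermal and 25918 per epidermal cell, and 45 cell barcodes occurred in both libraries. Cells were named from marker lists that hold none of the 10 genes: a type needed at least 4 of its 8 markers and 2 more than any other type. In the dermis this gave 1085 macrophages, 939 monocytes, 441 neutrophils, 245 fibroblasts, 163 T cells, 129 basophils, 108 dendritic cells and 90 mast cells, while 1152 cells (24.3%) stayed ungated and 354 phagocytes unresolved. Gated fibroblasts were present although the methods describe a CD45+ dermal sort, and the leading genes of the monocytes included *Hba-a1*, *Hbb-bs* and *Alas2*, genes of red blood cells. Levels are given as CPM, the UMIs of a gene scaled to the summed UMIs of the cells. The intervals are exact, at 95%, and hold only counting error. The spread between animals cannot be had from 1 library per tissue, so no test was made.

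Mast cells, the tissue-resident cells that store tryptases and chymases, had the highest level of *Ccl2* and *Ccl7*. *Ccl7* stood at 21737 CPM (20810 to 22695), with 2068 UMIs in 88 of 90 cells and a median of 13 UMIs per positive cell. That is 37.1 times (35.3 to 39.0) the 585 CPM of macrophages, the type next in order. Fibroblasts had 458 CPM of *Ccl7*, monocytes 176, neutrophils 120, basophils 60.1, T cells 52.4 and dendritic cells 50.7. The largest step thus lay between mast cells and macrophages, and among the 3 lowest types no neighbours differed beyond counting error. *Ccl2*, the classic ligand of CCR2, stood at 4352 CPM (3942 to 4792) in mast cells, where 71 of 90 cells had a UMI. It was 9.20 times (8.30 to 10.2) the 473 CPM of macrophages, and fibroblasts (333 CPM), monocytes (261 CPM) and neutrophils (157 CPM) followed in an order in which each step was larger than its counting interval. Basophils (46.3 CPM), T cells (39.5 CPM) and dendritic cells (26.4 CPM) were lowest, and neighbours among these 3 types were not separated.

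The mast cells were the shallowest type, with a median of 807.5 UMIs per cell against 7010 over the dermal library. Of their 10 leading genes, 6 were markers of the mast cell gate (*Mrgprb1*, *Cma1*, *Tpsb2*, *Tpsab1*, *Cpa3* and *Mcpt4*), so the gate favoured their lead. *Cma1* reached 58326 CPM. Of the genes that define other types in the gate, *C1qa* had 5 UMIs (52.6 CPM, against 1523 in macrophages and 53.8 in T cells), *Col1a1* 1 UMI and *Krt14* 0. *C1qb* stood at 137 CPM (93.3 in T cells), *Lyz2* at 1104 (580 in T cells), *S100a8* at 1314 and *S100a9* at 1451 (785 and 792 in T cells), and their part in the mast cell levels was not tested. When each cell was thinned to 1000 UMIs, which kept 25 of the 90 mast cells, 96.0% had *Ccl7* and 68.0% had *Ccl2*, against 29.5% and 24.6% of 1080 macrophages. The same thinning left *Ccl7* in 7.41% and *Ccl2* in 3.09% of T cells, which serve as the background that free RNA may give. At least 2-fold higher levels in mast cells than in all other dermal cells were seen for 2 of the 10 genes, *Ccl2* and *Ccl7*, where 31.6% of 11730 genes with at least 50 UMIs passed that limit, so the count alone does not set these genes apart. Another 6 (*Ccl3*, *Ccl4*, *Ccl6*, *Ccl9*, *Ccr1* and *Ccr2*) were at least 2-fold lower, against 14.8% of genes. Of these, *Ccr1* and *Ccr2* had only 2 mast cell UMIs each. With the pseudocount, genes of few UMIs could not pass this limit: 1731 genes passed at a minimum of 20, 50 or 200 UMIs alike. The 14.8% is thus no fair background for the 6 genes.

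**Figure D1:**
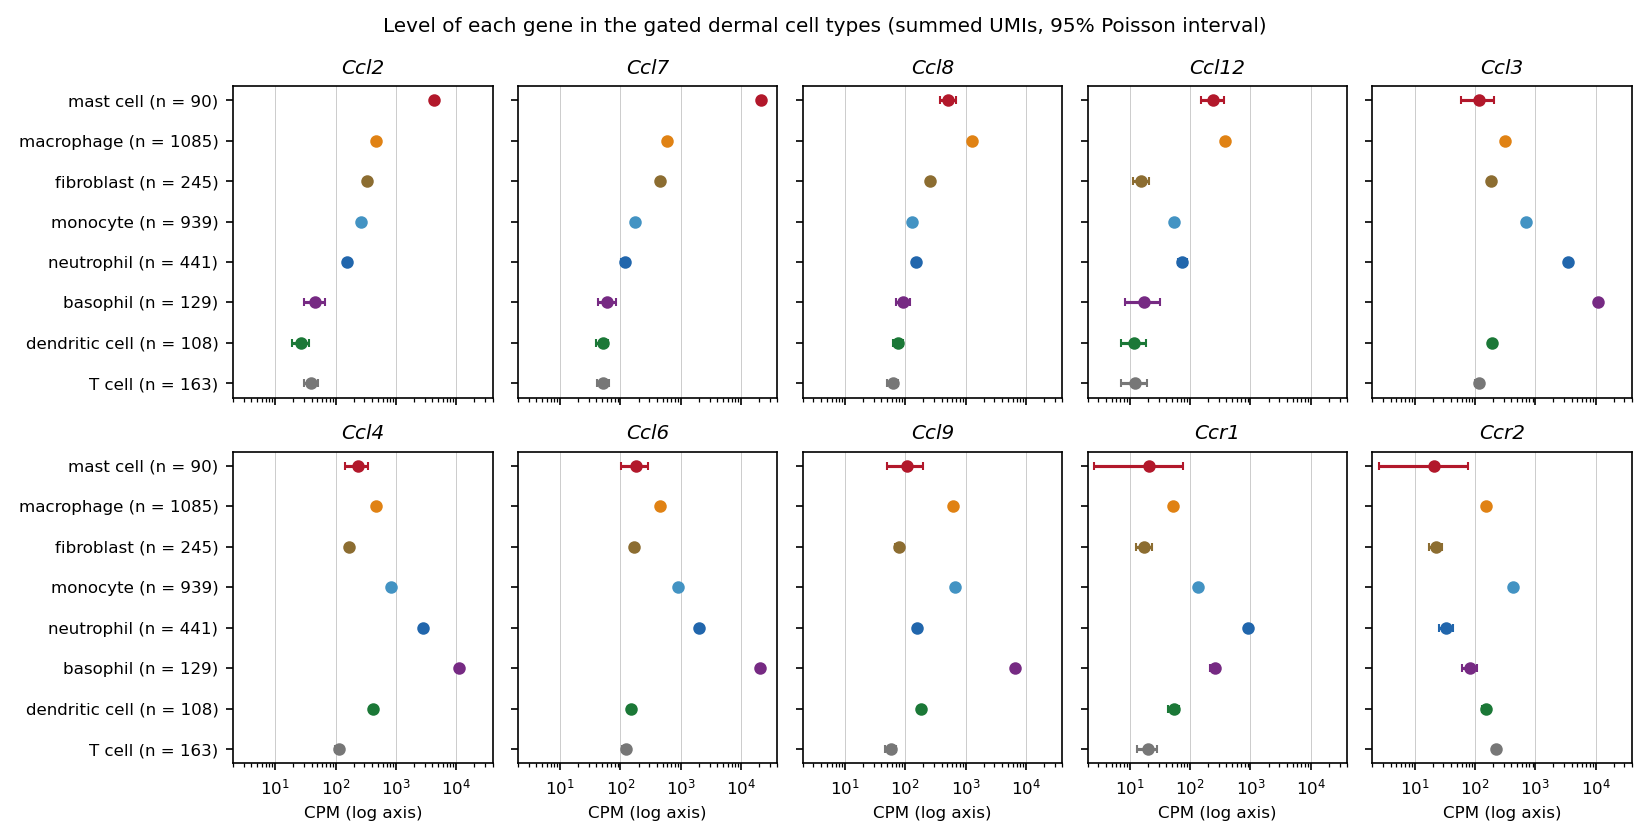
Level of each of the 10 genes (CPM, log axis) in the 8 gated dermal cell types with at least 20 cells, as points with exact 95% Poisson intervals of the summed UMIs; n is the number of cells. *Ccl7* in mast cells (21737 CPM) and *Ccl6* in basophils (20674 CPM) are the highest points, and *Ccr1* and *Ccr2* peak in neutrophils (910 CPM) and monocytes (434 CPM).

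The level in CPM and the place where most transcripts lay were different things for this pair. CPM is scaled to the UMIs of the cells, and mast cells were the shallowest type. The 90 mast cells had 414 UMIs of *Ccl2* and 2068 of *Ccl7*, and the 1085 macrophages had 5270 and 6523. Mast cells were 1.90% of the dermal cells and held 3.44% of the *Ccl2* UMIs and 13.3% of the *Ccl7* UMIs. This *Ccl7* share depended on how cells were named, with 8.96% where a lead of at least 3 markers was required and 17.2% as a Leiden cluster. Ungated cells also held UMIs of both genes, and 36 of them in that cluster had 591 UMIs of *Ccl7*. Macrophages held 43.8% of the *Ccl2* and 42.1% of the *Ccl7* UMIs, and monocytes 17.5% and 9.17%. Fibroblasts held 7.27% of *Ccl2* and 7.77% of *Ccl7*, with 32.5% and 40.9% of those UMIs in the 5 richest cells. Both transcripts were thus spread over the stromal and myeloid cells of the dermis, with a few fibroblasts carrying much of the fibroblast share.

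In macrophages, monocytes and fibroblasts, cells with *Ccl2* also had *Ccl7* more often than cells without it. At 1000 UMIs per cell, *Ccl7* was detected in 56.0% (49.8 to 62.1) of the *Ccl2*+ macrophages and in 20.9% (18.1 to 23.8) of the *Ccl2*- macrophages. The shares were 31.8% (24.8 to 39.3) and 8.13% (6.29 to 10.3) in monocytes, and 40.0% (23.9 to 57.9) and 13.2% (8.86 to 18.6) in fibroblasts. In these 3 types the intervals of *Ccl2*+ and *Ccl2*- cells did not overlap. They did in mast cells, where *Ccl7* was detected in 17 of 17 *Ccl2*+ cells (80.5% to 100%). Among the 8 *Ccl2*- mast cells the share was 87.5% (47.3 to 99.7). Among fibroblasts, the 126 cells with *Coch* had 375 CPM of *Ccl2* and the 119 without it 287 CPM (ratio 1.31), whereas *Ccl7* stood at 408 and 514 CPM (ratio 0.794, 0.708 to 0.891). A few rich fibroblasts carried much of both genes, as given above, and their part in these ratios was not tested.

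*Ccl8* and *Ccl12* were highest in macrophages, which held 69.3% and 70.4% of their dermal UMIs. *Ccl8* stood at 1292 CPM (1271 to 1313) in macrophages, 253 in fibroblasts, 150 in neutrophils, 131 in monocytes, 92.7 in basophils, 76.4 in dendritic cells and 62.6 in T cells. The mast cell value of 515 CPM rested on 1 cell, which held 35 of 49 UMIs. *Ccl12*, a ligand of CCR2 found in mice, stood at 373 CPM (362 to 384) in macrophages, 74.2 in neutrophils, 54.9 in monocytes, 17.2 in basophils, 15.6 in fibroblasts, 12.3 in T cells and 11.9 in dendritic cells. Here too a single cell set other values, with 22 of 23 UMIs in mast cells and 73 of 127 UMIs in neutrophils. From basophils down, neighbours in the order of both genes were not separated, nor were neutrophils and monocytes for *Ccl8*.

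Within macrophages, both genes were highest in the resident-type cells, defined by at least 2 of the markers *Lyve1*, *Folr2*, *Cd163*, *Cd209f*, *Cbr2* and *Gas6*. In the 308 resident-type macrophages *Ccl8* reached 2934 CPM against 367 CPM in the 777 other macrophages, a ratio of 7.99 (7.66 to 8.34), and *Ccl12* reached 672 against 204 CPM, a ratio of 3.29. These 308 cells held 56.7% of all dermal *Ccl8* and 45.7% of all *Ccl12* UMIs. The other ligands differed less: *Ccl9* 2.20-fold, *Ccl6* 2.07-fold, *Ccl7* 1.92-fold and *Ccl2* 1.61-fold higher in resident-type cells, and *Ccl3* (ratio 0.864) and *Ccl4* (ratio 0.793) lower. Both receptors were lower in resident-type cells, *Ccr2* with 86.0 against 192 CPM (ratio 0.449) and *Ccr1* with 39.4 against 58.1 CPM (ratio 0.678). Of the 10 genes, 4 (*Ccl8*, *Ccl12*, *Ccl6* and *Ccl9*) were at least 2-fold higher in resident-type macrophages, against 2.89% of 8232 genes, and 1 (*Ccr2*) was at least 2-fold lower, against 2.05%.

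The *Ccl8* level stepped up with each resident-type marker detected, from 255 CPM in 515 macrophages with 0 markers to 552 with 1, 913 with 2, 2856 with 3, 4598 with 4 and 6140 CPM in 39 cells with 5 or more. *Ccl12* went from 197 CPM at 0 markers to 1087 CPM at 4 and stood at 725 CPM at 5 or more. *Ccl9* and *Ccl6* stayed between 298 and 639 CPM up to 3 markers and reached 1700 and 1565 CPM at 5 or more, whereas *Ccl3* and *Ccl4* ended at 195 and 206 CPM, their lowest values. Cells with more markers were also deeper, with medians from 7142 UMIs at 0 markers to 15709 at 5 or more. In cells thinned to 2000 UMIs, *Ccl8* was detected in 21.7% of those with 0 markers and in 92.3% of those with 5 or more. The number of markers itself was not thinned, and the part of depth in these steps was not tested further.

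**Figure D2:**
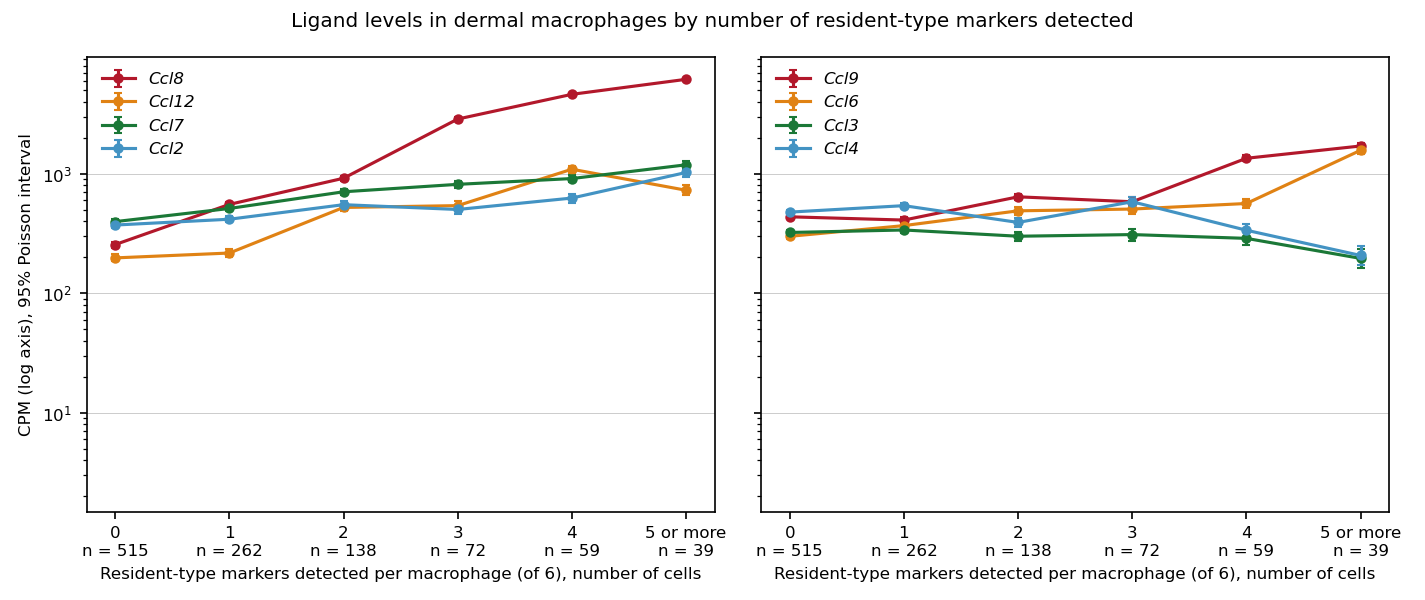
Levels (CPM, log axis) of *Ccl8*, *Ccl12*, *Ccl7* and *Ccl2* at left and of *Ccl9*, *Ccl6*, *Ccl3* and *Ccl4* at right in dermal macrophages, by how many of 6 resident-type markers a cell had; points carry exact 95% Poisson intervals and n is the number of cells. *Ccl8* climbs from 255 to 6140 CPM, while *Ccl3* and *Ccl4* end at 195 and 206 CPM.

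Groups formed by expression rather than by markers were also unequal. In Leiden clusters made without the 10 genes, 114 cells led by *Cd209f*, *Cd163* and *Folr2* had 5225 CPM of *Ccl8* and 1107 CPM of *Ccl12*, and 316 cells led by *Ppbp* and *Pf4* had 2214 and 468 CPM. These clusters held 34.2% and 31.4% of the dermal *Ccl8* UMIs. A cluster of 38 cells led by interferon-induced *Ifit* genes had 684 CPM of *Ccl2* in 25 cells, while 201 of its 242 *Ccl8* UMIs lay in 1 cell. At 1000 UMIs per cell, *Ccl12* was detected in 26.2% (21.0 to 31.9) of the *Ccl8*+ and 14.3% (11.9 to 16.9) of the *Ccl8*- macrophages. Within the resident-type cells the shares were 30.4% (23.1 to 38.5) and 23.8% (17.4 to 31.1), so the intervals overlapped there.

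Basophils, circulating granulocytes that enter inflamed skin and are known for interleukin-4, had the highest level of *Ccl3*, *Ccl4*, *Ccl6* and *Ccl9*, which together made up 4.94% of all their UMIs. *Ccl6* stood at 20674 CPM (20306 to 21046), 10.2 times (9.80 to 10.6) the 2031 CPM of neutrophils, with monocytes at 895 and macrophages at 450 CPM. *Ccl9* stood at 6599 CPM (6392 to 6811) and was detected in 129 of 129 basophils, 9.71 times (9.31 to 10.1) the 680 CPM of monocytes, with macrophages at 607 CPM. Neutrophils had 159 CPM of *Ccl9*, so *Ccl6* and *Ccl9* differed in whether neutrophils followed basophils in the order. The remaining types, from dendritic cells to T cells, had between 122 and 179 CPM of *Ccl6* and between 57.9 and 184 CPM of *Ccl9*.

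*Ccl3* and *Ccl4*, whose products are close relatives, followed 1 order over the 4 highest of the gated types with at least 20 cells. *Ccl3* stood at 10884 CPM (10617 to 11155) in basophils, 3466 in neutrophils, 714 in monocytes and 311 in macrophages. *Ccl4* stood at 11227 CPM (10956 to 11502) in basophils, 2792 in neutrophils, 822 in monocytes and 462 in macrophages. Each of these steps was larger than its counting interval, from 1.78-fold for *Ccl4* between monocytes and macrophages to 4.86-fold for *Ccl3* between neutrophils and monocytes. T cells had 118 CPM of *Ccl3* and 116 CPM of *Ccl4*, the lowest or next to lowest value. Natural killer (NK) cells, of which too few were gated to be listed, departed from this order as a Leiden cluster of 39 cells. That cluster had 2950 CPM of *Ccl4*, against 2434 CPM in the Leiden cluster of neutrophils. For *Ccl3* it had 707 CPM, against 2932 CPM in the neutrophil cluster.

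Nearly every basophil carried all 4 ligands: 121 of 129 had a UMI of each, and 106 of 129 when thinned to 1000 UMIs. At that depth 12 of 410 neutrophils and 40 of 933 monocytes had all 4. The basophils had 10374 CPM of *Mcpt8*, a basophil protease and a marker of their gate. *C1qa* stood at 84.1 CPM (53.8 in T cells) and *Krt14* had 1 UMI. Other genes of other types were higher: *S100a8* stood at 1378 CPM and *S100a9* at 1452 (785 and 792 in T cells). *Lyz2* stood at 712 CPM and *Cd74* at 477 (580 and 404 in T cells). The part of such transcripts in the basophil levels was not tested. Of the 10 genes, 4 were at least 2-fold higher in basophils than in all other dermal cells, against 10.6% of genes, and 5 (*Ccl2*, *Ccl7*, *Ccl8*, *Ccl12* and *Ccr2*) were at least 2-fold lower, against 34.2%. Basophils and mast cells, both known for the high-affinity IgE receptor, thus carried different ligands: the summed level of *Ccl2*, *Ccl7*, *Ccl8* and *Ccl12* was 2.68% of mast cell UMIs and 0.0216% of basophil UMIs, and that of *Ccl3*, *Ccl4*, *Ccl6* and *Ccl9* was 0.0631% of mast cell UMIs.

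**Figure D3:**
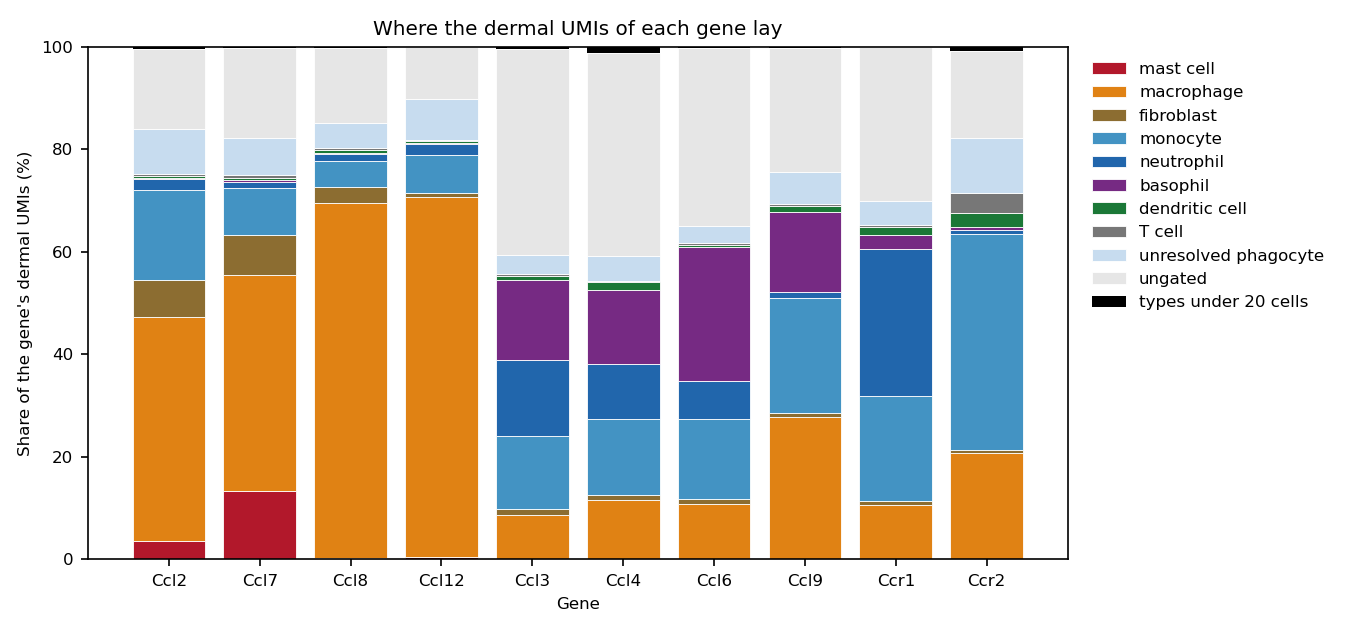
Share of the dermal UMIs of each gene (%) that lay in each gated cell type, in unresolved phagocytes and in ungated cells; each bar sums to 100%. Macrophages hold 69.3% of *Ccl8* and 70.4% of *Ccl12*, monocytes 42.2% of *Ccr2*, and ungated cells 34.9% to 40.3% of *Ccl3*, *Ccl4* and *Ccl6*.

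Where the transcripts of these 4 ligands lay depended on how cells were named. Gated basophils held 15.7% of the dermal *Ccl3*, 14.6% of *Ccl4*, 26.0% of *Ccl6* and 15.7% of *Ccl9* UMIs, and ungated cells 40.3%, 39.6%, 34.9% and 24.4%. The Leiden cluster of basophils held 264 cells, of which 129 were gated as basophils and 131 ungated, and its shares were 37.0%, 35.6%, 49.1% and 30.6%. The levels in this cluster, 12692 CPM of *Ccl3*, 13583 of *Ccl4*, 19352 of *Ccl6* and 6358 of *Ccl9*, were within 1.5-fold of those of gated basophils. By UMIs rather than by level, monocytes and macrophages each held more *Ccl9* than gated basophils did, with 22.4% and 27.7%.

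Monocytes, the cells these ligands recruit, also carried some of them. They held 14.3% of the dermal *Ccl3*, 14.8% of *Ccl4* and 15.6% of *Ccl6* UMIs. All 4 ligands were detected in 53.4% of monocytes, 47.2% of macrophages, 26.1% of fibroblasts, 24.7% of neutrophils and 14.1% of T cells. At 1000 UMIs these shares were 4.29%, 1.20%, 0.417%, 2.93% and 0. Compared with macrophages, *Ccl3* was 2.29-fold, *Ccl6* 1.99-fold, *Ccl4* 1.78-fold and *Ccl9* 1.12-fold higher in monocytes, whereas *Ccl2* (ratio 0.552), *Ccl7* (0.301), *Ccl12* (0.147) and *Ccl8* (0.101) were lower. At the 2-fold limit, 3 of the 10 genes (*Ccl3*, *Ccr1* and *Ccr2*) were higher in monocytes, against 4.65% of 9343 genes, and 3 (*Ccl7*, *Ccl8* and *Ccl12*) lower, against 7.51%. The 3 largest monocyte clusters differed among themselves, with 246, 804 and 1222 CPM of *Ccl3* and 87, 108 and 247 CPM of *Ccr1*, but 442, 447 and 409 CPM of *Ccr2*. Against macrophages, fibroblasts had 0 of the 10 genes at least 2-fold higher, where 17.3% of 9372 genes passed, and 7 at least 2-fold lower (all but *Ccl2*, *Ccl7* and *Ccl3*), against 14.6%.

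Among receiving cells, *Ccr2* was highest in monocytes and *Ccr1* in neutrophils. *Ccr2* stood at 434 CPM (420 to 449) in monocytes, which held 42.2% of its dermal UMIs, at 222 in T cells, 154 in macrophages, 152 in dendritic cells, 82.4 in basophils, 33.3 in neutrophils and 22.5 in fibroblasts. Monocytes had 1.96 times (1.75 to 2.20) the level of T cells, and macrophages and dendritic cells were not separated. Mast cells had 2 UMIs each of *Ccr2* and *Ccr1*, which is under the 3 counts taken as the detection floor. Thinned to 1000 UMIs, 34.1% of monocytes had *Ccr2*, 26 of 162 T cells, 14.7% of macrophages, 12.1% of dendritic cells, 10.1% of basophils, 2.68% of neutrophils and 2.50% of fibroblasts. The last pair, the lowest of these shares, were taken as the background, so the others lie above it by that choice. The neutrophil value depended on how cells were named, as the Leiden cluster of neutrophils (737 cells) had 126 CPM of *Ccr2*.

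The lead of monocytes for *Ccr2* did not hold in 1 setting. Where a marker counted only from 2 UMIs on, enough natural killer (NK) cells were gated to be listed, and they had 441 CPM against 426 CPM in monocytes. With markers counted from 1 UMI, 18 NK cells were gated, under the 20 that were required. The Leiden cluster of NK cells (39 cells) had 382 CPM of *Ccr2*, 2950 CPM of *Ccl4* and 0 UMIs of *Ccr1*. Among T cells, those with *Trdc*, the constant region of the δ chain, had 234 CPM of *Ccr2* and those with *Trac* 216 CPM, a ratio of 1.08 (0.841 to 1.39), so no difference was detectable at this depth.

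*Ccr1* stood at 910 CPM (865 to 956) in neutrophils, 256 in basophils, 136 in monocytes, 53.4 in dendritic cells, 51.3 in macrophages, 19.7 in T cells and 17.1 in fibroblasts. The steps from neutrophils to basophils (3.56-fold), to monocytes (1.87-fold) and to dendritic cells (2.56-fold) were larger than their counting intervals. Below these, dendritic cells and macrophages were not separated, nor were T cells and fibroblasts. The intervals of macrophages (47.2 to 55.7 CPM) and T cells (13.2 to 28.4 CPM) did not overlap. At 1000 UMIs, 55.9% of neutrophils, 24.0% of basophils and 12.2% of monocytes had *Ccr1*, against 3.09% of T cells and 2.50% of fibroblasts. Neutrophils held 28.8% of the dermal *Ccr1* UMIs by the gate and 46.7% as a Leiden cluster of 737 cells, of which 285 were ungated. Among monocytes, *Ccr2* was detected at 1000 UMIs in 29.8% (21.6 to 39.1) of *Ccr1*+ and 34.7% (31.4 to 38.0) of *Ccr1*- cells, and these intervals overlapped. Basophils, highest for the CCR1 ligands *Ccl3*, *Ccl6* and *Ccl9*, were next to neutrophils for *Ccr1* itself.

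**Figure D4:**
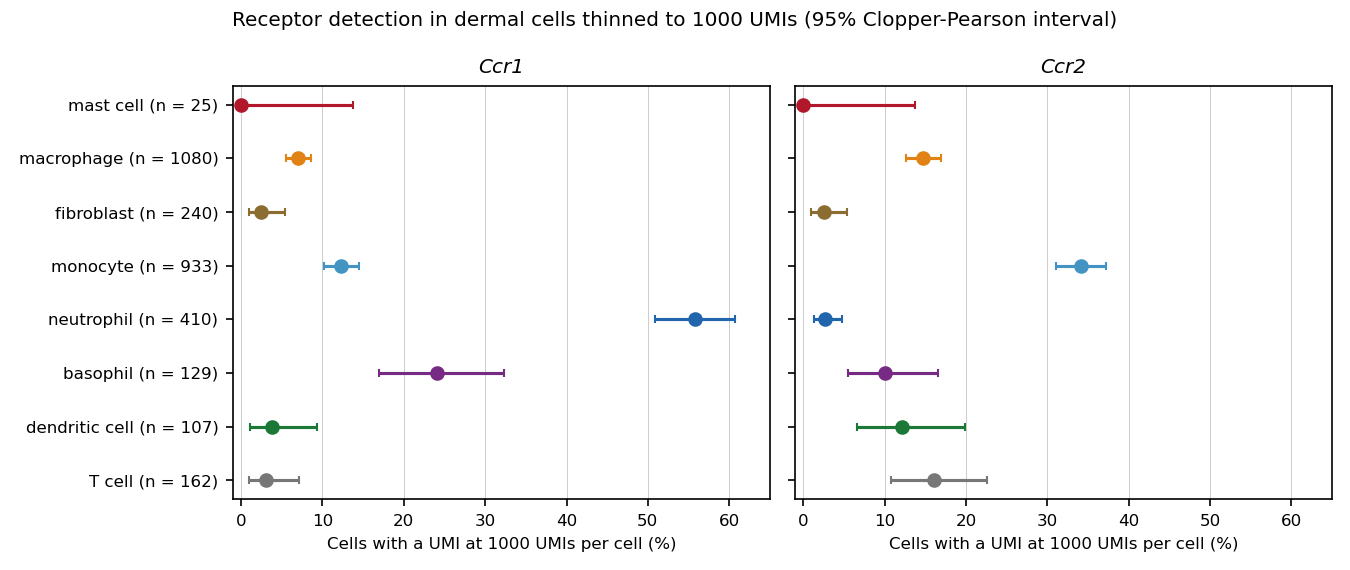
Share of cells (%) with a UMI of *Ccr1* (left) and *Ccr2* (right) after each dermal cell was thinned to 1000 UMIs, with exact 95% Clopper-Pearson intervals; n is the number of cells deep enough to be thinned. Neutrophils (55.9%) stand apart for *Ccr1* and monocytes (34.1%) for *Ccr2*, and fibroblasts are at 2.50% for both.

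All 10 genes were higher in the dermal than in the epidermal library, where 28.4% of 13740 genes were at least 2-fold higher and 25.3% at least 2-fold lower, the latter with 0 of the 10. The ratios ran from 53.1 for *Ccr1* (134 against 2.52 CPM) and 53.5 for *Ccl6* (1147 against 21.5 CPM) to 155 for *Ccl12* (146 against 0.943 CPM) and 199 for *Ccl7* (384 against 1.92 CPM). *Ccl2* stood at 298 against 4.47 CPM and *Ccr2* at 205 against 1.58 CPM. As means of the CPM of single cells, in which each cell counts alike, the log2 ratios were smaller, from 3.23 for *Ccl9* to 7.09 for *Ccl7*, against 5.86 and 7.64 for summed UMIs. The libraries also differed in makeup: a *Ptprc* UMI was found in 3038 dermal and 627 epidermal cells, and 3100 epidermal cells were gated as basal keratinocytes. The part of makeup in these ratios, and of the sort that the methods describe, was not tested. Within T cells, which were gated in both libraries, *Ccr2* was 31.1 times (13.2 to 96.5) higher in the 163 dermal cells (222 CPM) than in the 272 epidermal cells (7.13 CPM), of which 236 had *Trdc* and no *Trac*. By Leiden clusters of T cells, which took in cells the gate left out, *Ccr2* stood at 239 CPM (222 to 257) in 304 dermal and 33.8 CPM (25.1 to 44.6) in 524 epidermal cells, so the ratio depended on how T cells were named.

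In the epidermis the gate left many cells of the small immune groups unnamed and named others basal keratinocytes (98 of the 173 cells of the cluster with *Cd207*, 10 of 43 in that led by *Ngp* and 4 of 23 in that with *Mcpt8*). These groups are therefore described as Leiden clusters, made without the 10 genes and chosen after the data were seen. A basophil-like cluster of 23 cells, with *Ms4a2*, *Cd200r3*, *Gata2*, *Il4*, *Cyp11a1* and *Mcpt8* among its 10 leading genes, held 67.7% of the epidermal *Ccl6*, 74.5% of *Ccl9*, 60.0% of *Ccl3* and 55.1% of *Ccl4* UMIs. Its levels were 22293 CPM of *Ccl6*, 11914 of *Ccl9*, 9765 of *Ccl3* and 8011 of *Ccl4*, with *Krt14* at 4093 CPM. It had 0 UMIs of *Ccl2*, *Ccl7*, *Ccl8*, *Ccl12* and *Ccr2*. The same 4 ligands as in dermal basophils thus marked these cells, which were 0.551% of the epidermal cells.

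A cluster of 127 cells led by *Ccl24*, *Ms4a7* and *Chil3* held 64.6% of the epidermal *Ccl12*, 49.0% of *Ccl7*, 33.4% of *Ccl2*, 52.4% of *Ccr2* and 34.7% of *Ccr1* UMIs. Its levels were 258 CPM of *Ccl2*, 163 of *Ccl7*, 105 of *Ccl12*, 143 of *Ccr2* and 151 of *Ccr1*, each in 18 or more cells. Its *Ccl8* UMIs, 65.9% of the epidermal total, lay in 2 cells, of which 1 held 188 of 236. *Ccr1* was also seen in a cluster of 43 cells led by *Ngp*, *Retnlg* and *Ly6g* (217 CPM, 16.6% of its UMIs) and in 173 cells with 904 CPM of *Cd207*, a gene of Langerhans cells (46.3 CPM, 26.0%). A cluster of 52 cells led by *Il17f*, *Cd8b1* and *Icos* held 28.3% of the *Ccr2* UMIs at 128 CPM. In the 3100 gated basal keratinocytes the 10 genes ranged from 0.283 CPM (*Ccr2*) to 8.02 CPM (*Ccl6*), with the cells of the immune groups named above still among them. *Ccl2* UMIs were also found outside the immune groups. A cluster of 317 cells held 23.0% of the epidermal *Ccl2* UMIs in 35 cells at 10.9 CPM. Most of its cells were gated as basal keratinocytes, but its leading genes included the fibroblast markers *Dcn*, *Col1a2* and *Lum*. Another cluster, of 247 cells mostly gated as basal keratinocytes, held 13.8% in 18 cells at 5.36 CPM. A further 10.9%, 51 UMIs, lay in 1 cell.

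**Figure D5:**
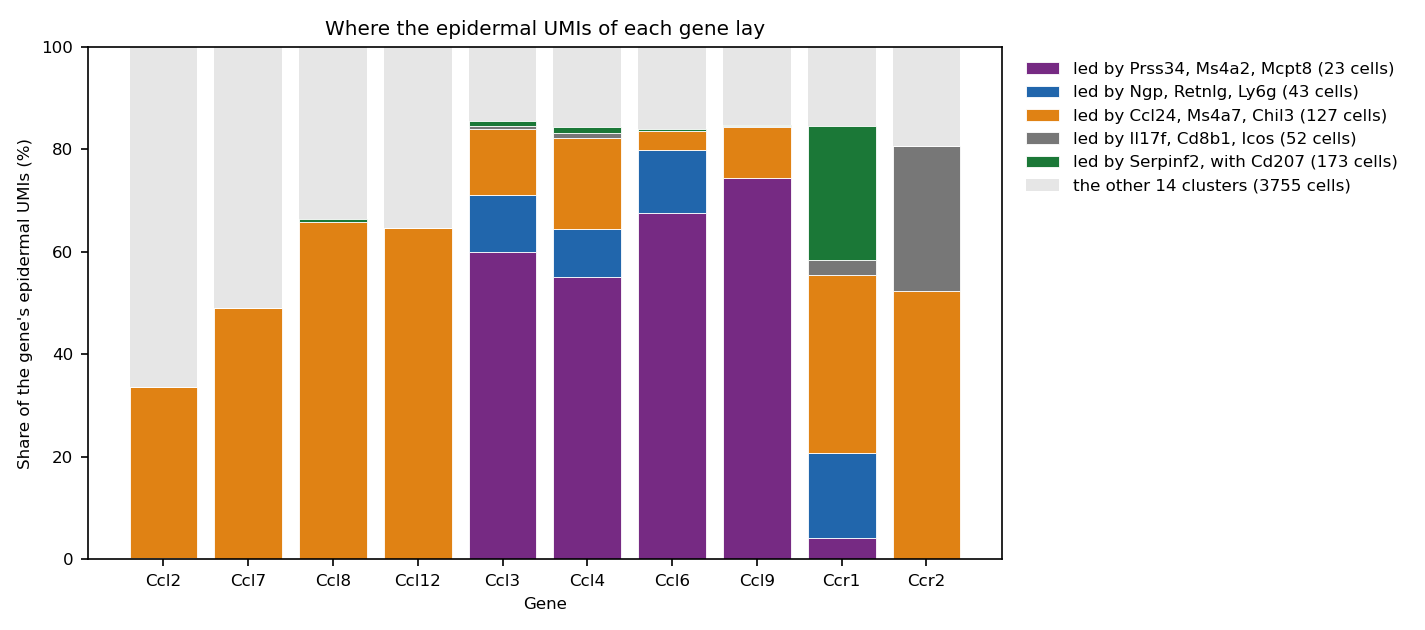
Share of the epidermal UMIs of each gene (%) that lay in 5 Leiden clusters and in the other 14 clusters; each bar sums to 100%. The 23 basophil-like cells hold 55.1% to 74.5% of *Ccl3*, *Ccl4*, *Ccl6* and *Ccl9*, and the 127 cells led by *Ccl24* hold 33.4% of *Ccl2*, 49.0% of *Ccl7* and 64.6% of *Ccl12*, while their 65.9% of *Ccl8* lies in 2 cells.

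Over the 12 gated types of both libraries with at least 20 cells, the genes most like each member by Pearson correlation of log2(CPM + 1), among 10973 genes, were often other members. *Ccl3* was closest to *Ccl4* (r = 0.988), *Ccl6* to *Ccl3* (r = 0.987) and *Ccl2* to *Ccl7* (r = 0.970), and *Ccl12* was closest to *Ccl8* (r = 0.956). *Ccl7* was nearly as close to *Ost4*, which is not a chemokine gene (r = 0.969), as to *Ccl2*. *Ccl8* was closest to *Pf4*, platelet factor 4 (r = 0.973), and *Ccl9* to *Rnf130* (r = 0.978). *Ccr1* was closest to *Il1b* (r = 0.985), then to *Nlrp3* and *Clec4e*, both genes of innate sensing. *Ccr2* was closest to *Ms4a6b* (r = 0.973). These values share libraries and depth across the types and are a description only.

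Several other CC and CX3C ligands and receptors of the family had other leading types. Among dermal types with at least 20 cells, *Ccl17* and *Ccl22*, ligands of CCR4, were highest in dendritic cells (113 and 148 CPM), and *Ccl19*, a ligand of CCR7, in fibroblasts (488 CPM). *Ccl24* was highest in macrophages at 21.7 CPM. Among receptors, *Cx3cr1* was highest in dendritic cells at 242 CPM, *Ccr6* in T cells at 104 CPM and *Ccrl2*, an atypical receptor, in neutrophils at 1136 CPM.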

How the data were processed

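The labels describe C57BL/6 mouse skin treated with IMQ and 10x Genomics 3′ libraries (kit v3). The authors counted UMIs with CellRanger (3.0.2 in the file headers) on mm10, per the submitters' processing notes, and deposited raw UMI counts for all barcodes called as cells. No normalization had been applied. From these counts, cells under 200 genes or over 10% mitochondrial UMIs were left out and the rest gated by fixed marker lists (a marker counted from 1 UMI). Genes were named by rule: the 10 members, other CC and CX3C ligands and receptors, and the 3 genes most correlated with each member, not all of which are reported here. The members, the lists and the rule were chosen with earlier results of these data known. Leading genes of clusters were named after seeing the values.

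CPM were computed from UMIs summed per library and type, with exact Poisson, Clopper-Pearson and conditional 95% intervals. Folds between groups used a pseudocount of 0.5 UMIs for the counts of genes past 2-fold. For shares of cells, UMIs were drawn down to 1000 per cell (2000 for the marker steps). Leiden clusters (2000 variable genes, 30 components, resolution 1, members left out) and Scrublet scores came from scanpy 1.11.5. Doublets were left in the main values, and removing the top scores at 0.8% per 1000 cells was an alternative. Gene positions came from GENCODE M21 and promoters from RefSeq. The counting of folds and likeness was tested on simulated data. Computations ran under Python 3.11.15 with scipy 1.17.1, numpy 2.4.6 and pandas 2.3.3. Each tissue had 1 library, so cells were not treated as replicates and no p-value was computed.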

Additional observations from a re-analysis of the deposited data

How the results depend on the processing

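No paired analysis was possible because there was only 1 library per layer and no test. The leading dermal type was the same for 8 of 8 ligands under every alternative run: other limits on genes and mitochondria, other gates, removal of top Scrublet scores and Leiden clusters. For the receptors it was the same for 2 of 2 except where markers counted from 2 UMIs on, which left 1 of 2, since *Ccr2* was then highest in NK cells (441 CPM, against 426 CPM in monocytes). All 10 members were higher in the dermis under the 4 alternatives run for it (cell filter, Scrublet, means of cells and richest cell), but the size of the log2 ratio moved: with means of cells it was 3.37 for *Ccl6* (5.74 as reported), 3.23 for *Ccl9* (5.86), 4.01 for *Ccr1* (5.73) and 4.65 for *Ccr2* (7.02), and without the richest cell 8.26 for *Ccl8* (7.24). The CPM in the leading type moved by less than 1.5-fold under each alternative run, but shares of UMIs moved more. With a lead of at least 3 markers, the basophil share fell to 7.30% for *Ccl3*, 7.12% for *Ccl4*, 12.4% for *Ccl6* and 8.36% for *Ccl9*, the mast cell share of *Ccl2* to 2.12% and the neutrophil share of *Ccr1* to 18.5%. With no lead required, an alternative chosen after seeing how many cells stayed ungated, the basophil shares were 30.4%, 29.5%, 41.8% and 25.0%. With at least 20 or 200 UMIs per gene in place of 50, the genes at least 2-fold apart between resident-type and other macrophages in either direction were 7.21% or 3.16% (4.94% at 50), and those higher in mast cells 39.6% or 20.4% (31.6% at 50). The mast cell shares can include genes without a mast cell UMI, through the pseudocount. Mast cells had 95137 UMIs in all, which limits shares at equal depth to 25 cells, and 1 library per layer gives no error between animals.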

Other observations

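Other ligands and receptors of the chemokine family were also placed by their highest level among gated types with at least 20 cells. In the epidermal library, *Ccl20*, the ligand of CCR6, was highest in suprabasal keratinocytes at 272 CPM (243 to 304). These cells held only 313 of its 7122 UMIs over the library, and the dermis had 130 UMIs. *Ccl27a*, a keratinocyte ligand of CCR10, was highest in the same cells at 27.0 CPM (18.3 to 38.3), with 31 of its 960 epidermal UMIs. *Cx3cr1*, the receptor of CX3CL1, stood at 141 CPM (115 to 172) in epidermal T cells and at 242 CPM (218 to 269) in dermal dendritic cells. The epidermal T cells were the highest gated type with at least 20 cells but held only 99 of the 3647 epidermal *Cx3cr1* UMIs. *Ackr4*, a scavenging receptor, was highest in fibroblasts of the dermis at 26.6 CPM (20.8 to 33.7) and in basal keratinocytes of the epidermis at 2.38 CPM (2.08 to 2.71).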
